A study of Mus musculus with 50 samples.

Results

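The class II-high cells outside the Kupffer and B cell gates made up 1015 of 49917 cells, or 2.03%, in mouse liver sections profiled by CosMx spatial molecular imaging, an assay that decodes single transcripts in place and assigns them to segmented cells. They were selected on their counts of 11 genes. A cell with at least 20 gene counts was taken when H2-Aa, H2-Ab1, H2-Eb1 and Cd74 together gave at least 6 counts and at least 6% of its gene counts. Cells with more than 1 count of Cd5l, C1qa, C1qb and C1qc (the Kupffer gate) or more than 3 counts of Cd52, H2-DMb2 and H2-Ob (the B cell gate) were set aside. Measured counts therefore chose the cells, and gene levels of these cells against other cells are given as a description with no test, whereas stains, cell size, position and genotype played no part in the choice.

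Control livers came from wild-type C57BL/6 mice and HIRA KO livers from HIRA fl/fl C57BL/6 mice, and mice of both genotypes were injected with AAV8-TBG-Cre when 6 months old and collected 12 months later, at 18 months. The TBG promoter drives Cre in hepatocytes, so the cells described here were not the target of the deletion, and Hira was not on the panel of 1000 gene targets. The 50 fields of view on 1 slide fall into 6 tissue areas, 3 per group, and each area served as 1 replicate because the labels name no mouse. Genotype was split by slide column, with control tissue on one side and HIRA KO tissue on the opposite one, so genotype and slide side cannot be told apart, while a control and a HIRA KO area shared each of the 3 slide rows. Kept cells held 734269 to 1565758 gene counts per area, and the class II-high cells held 2562 to 41142 counts per area outside the 11 genes of the rule, with the fewest in control area 2.

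MHC class II molecules are heterodimers that display peptides from endosomes to CD4 T cells. H2-Aa and H2-Ab1 encode the alpha and beta chains of I-A, H2-Eb1 encodes the beta chain of I-E, and Cd74 encodes the invariant chain that fills the groove until the peptide is loaded. Dendritic cells, B cells and some macrophages carry them constitutively under the transactivator Ciita, and in the liver such cells are known from the portal tracts and the capsule, whereas Kupffer cells line the sinusoids. In the RefSeq annotation of GRCm38.p6, H2-Ab1 (34263227 to 34269418), H2-Aa (34282744 to 34287823) and H2-Eb1 (34305867 to 34316674) lie side by side on chromosome 17, in the class II region. The panel reads each target with its own probes, so counts of different genes are not set against each other here as levels.

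Class II-high cells before the gates numbered 2260, of which 44.9% were kept as members, 49.1% were set aside by the Kupffer gate (1110 cells) and 5.97% by the B cell gate alone (135 cells). Members held a median of 113 gene counts, of which a median of 11 were class II counts, or 9.81% of the cell. The most class II-rich member held 49 such counts and the highest share was 46.4%. Many cells lay near the thresholds. There were 98 members with exactly 6 class II counts and 147 cells with 5 that met all other criteria, and 173 members with 6 to 7% class II counts against 169 cells with 5 to 6%. The Kupffer gate was met with 1 count by 327 members, and 219 cells with 2 counts were left out. At the B cell gate, 90 members held 3 counts and 48 cells with 4 were left out. The members are therefore a range of cells cut from a continuum.

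Among the 13478 class II transcripts of the members, Cd74 gave 43.8%, H2-Ab1 25.8%, H2-Aa 18.2% and H2-Eb1 12.2%. The H2-Aa part was 17.3, 16.7 and 13.5% in the control areas and 20.01, 18.8 and 17.8% in the HIRA KO areas, with no overlap. The H2-Ab1 part was 28.7% ± 1.80 (SD, n = 3) in control and 25.2% ± 2.70 (SD, n = 3) in HIRA KO, and here the areas overlapped. The Cd74 and H2-Eb1 parts were close in both groups, at 43.5 and 43.7% and at 12.0 and 12.2%. These genes chose the cells and were not tested.

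The working name of these cells was MHC class II myeloid cells, and the genes outside the rule went against it in part. By the fold of the level over all other kept cells, with levels in counts per 10000 counts outside the 11 genes and an offset of 1, the first 10 were Ighm (4.20-fold), Igkc (3.99-fold), H2-DMb1 (2.93-fold), Crip1 (2.93-fold), Psap (2.86-fold), S100a4 (2.85-fold), Sh3bgrl3 (2.79-fold), Ciita (2.72-fold), Fau (2.58-fold) and Vim (2.49-fold). Ighm and Igkc encode immunoglobulin chains of B and plasma cells, H2-DMb1 encodes a chain of the class II peptide exchange factor, and Psap encodes the precursor of lysosomal saposins. The B cell genes Cd79a (2.31-fold) and Ms4a1 (2.01-fold) followed within the first 30. Of the 1032 Ighm counts of members, 601 came from HIRA KO area 3. In control area 2, members were at 7.81 for Ighm against 7.77 in other cells, and at 3.90 against 9.52 for Igkc. Class II-high cells set aside by the Kupffer gate were also above other cells, at 47.6 against 20.3 for Ighm and 81.0 against 37.6 for Igkc. An Ighm count was present in 27.9% of members and in 22.5% of those cells. The cells are therefore called by their rule here and by no cell type.

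Genes of macrophages and monocytes did not all stand apart from other cells. S100a4 (2.85-fold), S100a6 (2.18-fold) and Plac8 (1.93-fold) were higher in members in all 6 areas, as were Ccr2 and Tyrobp, given below. Csf1r, Cd68, Itgam, Cx3cr1 and Cd14 stood little above other cells or at their level. The receptor gene Csf1r was at 7.04 counts per 10000 in members, 6.46 in all other kept cells and 20.5 in class II-high cells set aside by the Kupffer gate. The lysosomal gene Cd68 was at 13.4, 10.7 and 26.5 in the same order. Itgam (8.76 against 8.57 in other cells), Cx3cr1 (8.07 against 9.41) and Cd14 (9.44 against 9.73) were at the level of other cells. A Csf1r count was present in 7.19% of members and in 7.20% of hepatocyte-marked cells, which held a median of 215 counts against 113, and a Cd68 count in 13.2% and 15.2%. Per 10000 counts, hepatocyte-marked cells were at 3.38 for Csf1r and 7.75 for Cd68. Other genes of antigen-presenting and migratory myeloid cells were above other cells in all 6 areas, among them Ccr2, the receptor of recruited monocytes (9.61 against 4.39), Cd209a, a lectin of dendritic cells and monocytes (11.2 against 7.04), Itgax, the CD11c integrin chain (11.9 against 6.74), and the adaptor gene Tyrobp (21.3 against 13.04). Their shares of cells with a count were also low, at 11.2% of members and 12.2% of the deeper hepatocyte-marked cells for Cd209a and at 11.3% and 12.0% for Itgax.

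Across the lists, 7 of 21 genes of monocytes and macrophages, 4 of 11 of dendritic cells, 6 of 11 pan-leukocyte genes and 5 of 15 antigen presentation partners were higher in members in all 6 areas. Of all 989 genes outside the rule, 6.77% were higher and 12.2% lower in all 6 areas, and since the rule used this contrast nothing is read from the shares. The median log2 ratio of members over other cells was 0.89 for the pan-leukocyte genes, 0.55 for the antigen presentation partners, 0.33 for monocytes and macrophages and 0.24 for dendritic cells, beside -0.12 for all 989 genes. Hepatocyte genes were lower (median -1.34), with 11 of 13 lower in all 6 areas, and endothelial genes had a median of -0.43. Kupffer cell genes outside the gate had a median of -0.32. Stellate cell and fibroblast genes had a positive median of 0.30, with 4 of 19 higher in all 6 areas.

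The members were mixed in B cell genes. Summed over Ighm, Ighd, Cd79a, Ms4a1, Cd22, Blk and Cxcr5, 231 members held at least 3 counts, 337 held 1 or 2 and 447 held none. This division was made after the leading genes had been seen, and it used counts that were not corrected for depth. Members with at least 3 counts held a median of 168 gene counts, against 92 in those with none. Of other kept cells, 9.09% also held at least 3 counts, against 22.8% of members. Their share was above that of members in control area 2 (11.1 against 4.55%) and HIRA KO area 2 (9.13 against 5.92%), and below it elsewhere. Cells with at least 3 counts made up 10.9, 4.55 and 11.2% of the members of control areas 1 to 3 and 26.6, 5.92 and 41.2% of those of HIRA KO areas 1 to 3, so HIRA KO areas 1 and 3 stood apart and HIRA KO area 2 lay with the controls. Among members without any such count, Psap was at 117 counts per 10000, against 31.7 in other kept cells and 64.2 in members with at least 3 B cell gene counts. Gsn (43.9 against 16.3 in other cells), Mgp (16.9 against 4.95) and Col3a1 (13.6 against 4.76), all of the stellate cell and fibroblast list, were also high there. So were the dendritic cell chemokine gene Ccl22 (13.6 against 5.98) and Cd209a (14.6 against 7.04). Of the 115 Ccl22 counts of all members, however, 43 came from control area 3. H2-DMa was at 20.8 and 21.05 in members without and with these counts, and H2-DMb1 at 21.3 and 19.1, close to each other. Class II-high cells set aside by the Kupffer gate were at 127 for Psap and 20.5 for H2-DMb1, so neither level was particular to members. Those cells were lower than members without B cell gene counts for Mgp (4.87) and Ccl22 (7.60). Igkc, which was not used in the division, was at 33.8 in members without B cell gene counts and 335 in those with at least 3, and 37.6 in other cells.

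**Figure D1:**
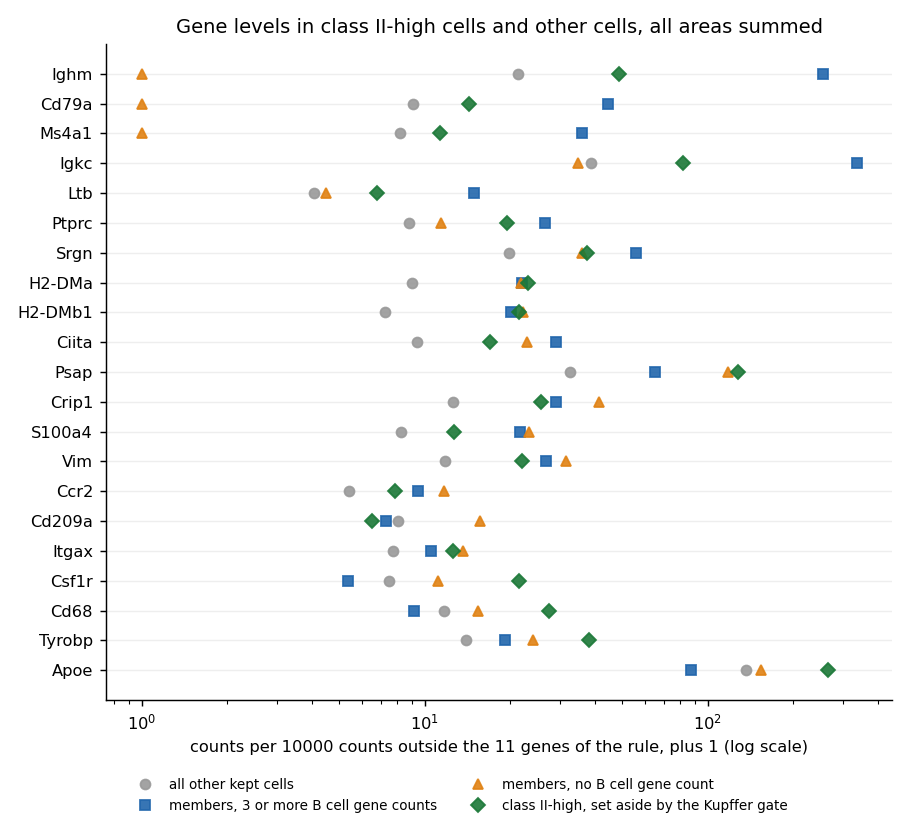
Levels of named genes in counts per 10000 counts outside the 11 genes of the rule, plus 1, on a log axis, with all areas summed. Blue squares are members with at least 3 counts of 7 B cell genes and orange triangles members with none, so Ighm, Cd79a and Ms4a1 differ by construction. Igkc was at 335 and 33.8 in these cells, and Csf1r at 20.5 in the class II-high cells set aside by the Kupffer gate (green diamonds).

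The protein stains, which the rule did not use, set the members apart from other kept cells. The CD45 stain, which marks leukocytes, had median intensities of 3791, 2554 and 4065 in members of the control areas and 8539, 4043 and 5665 in those of the HIRA KO areas, against 654 to 1126 in other cells over the 6 areas. Members lay far above other cells in every area. The mean ratio was 5.21-fold (log2 2.38 ± 0.36, SD, n = 6 areas), higher in 6 of 6 areas (two-sided exact paired permutation test, p = 0.031, the lowest that 6 pairs allow, adjusted p = 0.04375 over 7 measures). Members with at least 3 B cell gene counts had CD45 medians of 11893, 1661 and 5165 in the control areas and 18707, 6256 and 14693 in the HIRA KO areas, and members with none had 3278, 2513 and 3756 and 5342, 4012 and 3382. The first were brighter in 5 of 6 areas, least so in control area 3 and HIRA KO area 2, and control area 2 held 1 such cell. Among cells within the middle of the members' size range the CD45 difference was 2.13 on the log2 scale. The exact paired permutation test gave p = 0.031, again the lowest that 6 pairs allow, and an adjusted p of 0.0938.

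The DAPI stain was 1.79-fold higher in members in 6 of 6 areas, and the epithelial PanCK stain was 0.755-fold as bright in 6 of 6 (exact paired permutation test, p = 0.031 and adjusted p = 0.04375 for each). Among cells of the middle sizes neither passed the adjusted threshold (log2 0.55, adjusted p = 0.125 for DAPI and log2 -0.46, adjusted p = 0.0938 for PanCK, exact test). The unadjusted p for PanCK stayed at the lowest possible value, 0.031 (exact paired permutation test). Median cell areas were 6939, 8411 and 6151 square pixels in members of the control areas and 5278, 6075 and 5056 in those of the HIRA KO areas. Members were 0.504 times the area of other cells, with nuclei 0.740 times as large (same test and p-values), but among cells within the middle of the members' size range, 4079 to 8325 square pixels, the difference in nuclear area did not pass the test and had the opposite sign (log2 0.06, exact paired permutation test). The T cell stain CD3 (1.03-fold, exact p = 0.875) and B2M, the light chain of class I (1.10-fold, exact p = 0.15625), did not pass. Against class II-high cells set aside by the Kupffer gate, members were lower in B2M (0.798-fold), cell area (0.673-fold) and nuclear area (0.770-fold) in all 6 areas (exact paired permutation test, p = 0.031 each), and CD45 was higher in 4 of 6 (1.23-fold, p = 0.15625).

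**Figure D2:**
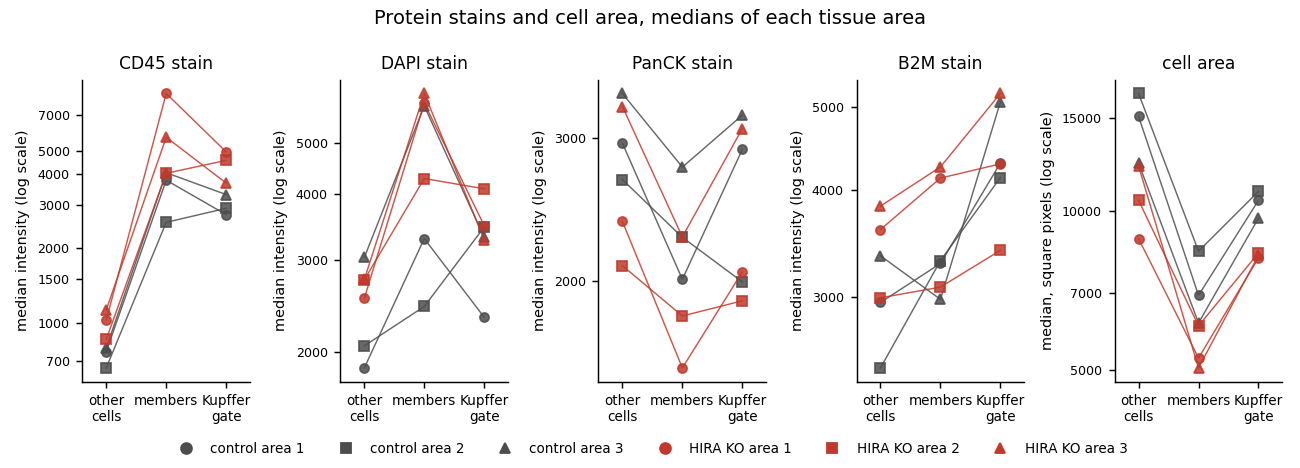
Medians per tissue area of 4 stains (mean intensity per cell) and of cell area (square pixels), on log axes, in other kept cells, in members and in class II-high cells set aside by the Kupffer gate. Lines join the values of 1 area. The CD45 median rose from 654 to 1126 in other cells to 2554 to 8539 in members, and the cell area of members was the smallest of the 3 in all 6 areas.

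Members of HIRA KO areas were smaller than those of control areas, at 5469.7 ± 536 and 7167 ± 1147 square pixels (SD, n = 3 each), with no overlap (two-sided exact permutation test, p = 0.1, the smallest that 3 against 3 allows, adjusted p = 0.42 over 7 measures). Other kept cells were also smaller in HIRA KO areas, at 8882 to 12196 against 12343 to 16728. Relative to the other cells of the same area the difference was 0.10 on the log2 scale, the areas overlapped and the exact permutation test gave p = 0.6. CD45 was 3470 ± 805 in control members and 6082 ± 2277 in HIRA KO members (SD, n = 3 each), with overlap (exact permutation test, p = 0.2).

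Class II transcripts lay outside the nucleus more often than the other transcripts of the same cells. Of the class II transcripts, 36.2, 44.8 and 45.004% were assigned to the nuclear compartment in the control areas and 41.4, 54.2 and 43.9% in the HIRA KO areas. For all other genes of the members the shares were 45.6 to 55.8%. The difference was -4.93 percentage points ± 3.17 (SD, n = 6 areas), lower in 6 of 6 (exact paired permutation test, p = 0.031). The rule chose these cells on counts of the same 4 genes, wherever in the cell the transcripts lay. The part that transcripts of neighbouring cells had in this difference was not tested. Against Ptprc, Cd68, Csf1r, Itgax and Itgb2 together (747 transcripts) the difference was -13.6 points ± 4.56. The membrane compartment held 24.98% of class II transcripts and 15.7% of the others on average over the areas. The mean nuclear shares of the 4 genes lay between 43.2% for H2-Eb1 and 45.9% for H2-Aa, but single genes did not lie below the other transcripts in every area, and H2-Aa was at 54.7% against 50.6% in control area 2. Between genotypes the nuclear share of class II transcripts was 42.01% and 46.5%, with overlap (exact permutation test, p = 0.6).

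The members were gathered in few places. The richest field of view held 26.6, 36.4 and 52.0% of the members of control areas 1 to 3 and 45.9, 18.9 and 46.1% of those of HIRA KO areas 1 to 3. Among the 20 nearest cells of a member, other members made up 10.6, 2.27 and 13.1% in the control areas and 15.4, 5.68 and 16.3% in the HIRA KO areas, which was 3.41 to 9.44 times the members' share of the area (log2 2.51 ± 0.53, SD, n = 6, exact paired permutation test against 0, p = 0.031). Still, 22.9 to 59.1% of the members of an area had no other member among their 20 nearest cells. The ratio was higher in control areas (6.77, 7.05 and 9.44) than in HIRA KO areas (4.43, 3.41 and 5.00), with no overlap (exact permutation test, p = 0.1), and control area 2 rested on 22 members. It divides by the members' share of the area, which was lower in control. Undivided measures ran the other way, with overlap (exact permutation test, p = 0.4 each). Members with at least 5 members among their 20 nearest cells averaged 11.8% in control and 22.7% in HIRA KO areas. Those with none averaged 45.2% and 33.6%. With members of at least 10 class II counts and 10% the ratios were 13.5, 0 and 14.6 in the control areas and 4.79, 3.595 and 7.57 in the HIRA KO areas, which overlapped (exact permutation test, p = 0.4). With the main rule, the ratio for class II-high cells set aside by the Kupffer gate was 1.48 to 4.52 over the areas. Members were higher in 5 of 6 areas, by a mean of 3.37 ± 2.72 (SD, n = 6, exact paired permutation test, p = 0.0625). The exception was HIRA KO area 2 (3.41 against 3.48). Neighbouring segmented cells can share transcripts, and the part of this in the clustering was not tested.

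Cells around the members were classed by markers of the other liver cell types, with members kept as their own class. Most kept cells, 52.6 to 86.0% per area, met no class, and only 1.23 to 21.6% were hepatocyte-marked. The shares below are therefore those of marked cells and do not give the composition of the tissue. B cell-marked neighbours made up 3.33% around members and 0.603% around other kept cells on average over the areas, higher in 6 of 6, and Kupffer cell-marked neighbours 2.11% and 3.98%, lower in 6 of 6 (exact paired permutation test, p = 0.031 each, adjusted p = 0.1125 over 9 classes). The B cell value came mainly from HIRA KO areas 1 and 3, where it was 6.86 and 9.51%, against 0.455 to 1.99% in the other areas. Biliary cell-marked (5.72 against 3.42%), stellate cell and fibroblast-marked (6.64 against 4.14%) and plasma cell-marked neighbours (4.64 against 1.18%) were each higher in 5 of 6 areas (exact p = 0.0625). No class passed the adjusted threshold. The lowest p that 6 pairs allow is 0.031, so over 9 classes a value passes only if most classes reach it at once. The adjusted values therefore cannot decide whether single classes differ. Around members with no B cell gene count, biliary cell-marked neighbours made up 5.39 to 10.8% over the areas, above the 1.22 to 5.10% around other kept cells, and B cell-marked neighbours 0.319 to 2.32%. Class II-high cells set aside by the Kupffer gate had 1.80% B cell-marked neighbours on average, above other kept cells in every area. Their share was above that of members in control area 2 (0.870 against 0.455%) and HIRA KO area 2 (1.32 against 0.592%), and below it elsewhere. This difference was not tested.

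**Figure D3:**
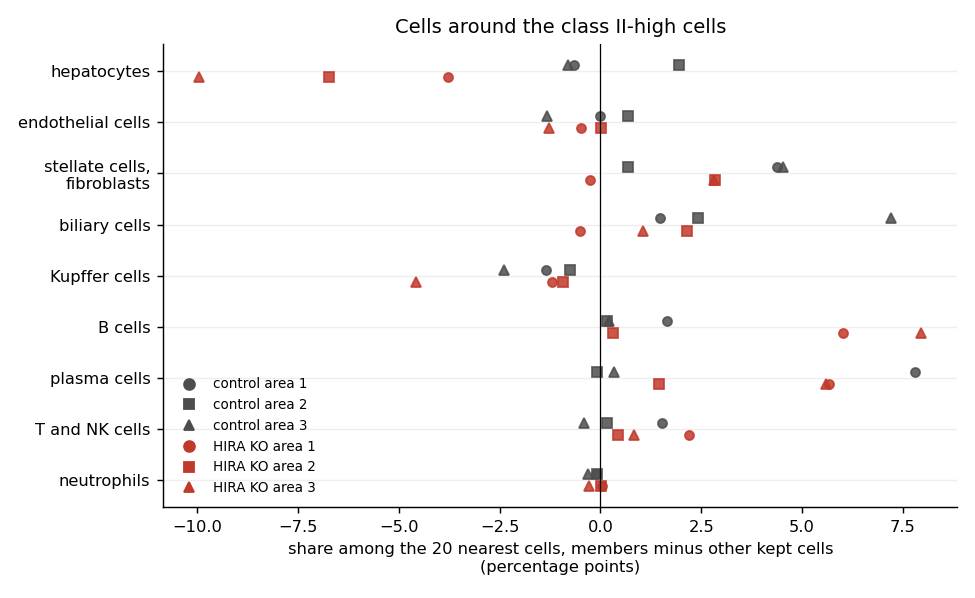
Difference in the share of each marker class among the 20 nearest cells, members minus other kept cells, in percentage points, with 1 point per tissue area (3 control, 3 HIRA KO). All 6 points lie above 0 for B cells and below 0 for Kupffer cells, and HIRA KO areas 1 and 3 lie far to the right for B cells.

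Class II-high cells outside the gates took a larger share of the cells in HIRA KO areas. They were 128 of 8181, 22 of 6829 and 98 of 7058 kept cells in control areas 1 to 3, or 1.56, 0.322 and 1.39%, and 353 of 10180, 169 of 10150 and 245 of 7519 in HIRA KO areas 1 to 3, or 3.47, 1.67 and 3.26%. All 3 HIRA KO areas lay above all 3 control areas, although HIRA KO area 2 was only just above control area 1, and HIRA KO was higher in each slide row. The means were 1.09% ± 0.672 and 2.80% ± 0.986 (SD over 3 areas per genotype). A two-sided exact permutation test gave p = 0.1, the lowest value 3 areas against 3 allow, so the design cannot bring this difference past 0.05. Among cells of at least 100 counts, which left out 2396 to 4885 cells per area, members were 1.93, 0.338 and 1.34% in the control areas and 3.95, 1.67 and 3.27% in the HIRA KO areas, so that HIRA KO area 2 lay below control area 1. With these cells thinned to 100 counts each, the mean shares were 1.99% and 5.22% and the areas overlapped as well (exact permutation test, p = 0.2). With no Kupffer gate they were 2.18% and 5.86%, with overlap (p = 0.3), and with at least 4 class II counts and 4% they were 2.24% and 5.02%, with overlap (p = 0.2).

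The B cell gene counts moved with this difference. Members with at least 3 of them averaged 0.114% ± 0.0863 of kept cells over the control areas and 0.788% ± 0.633 over the HIRA KO areas (SD, n = 3), with HIRA KO area 2 (0.0985%) inside the range of the controls (exact permutation test, p = 0.3). Without them the remaining members still were 1.39, 0.308 and 1.23% in the control areas and 2.54, 1.57 and 1.92% in the HIRA KO areas, and without any B cell gene count 0.733, 0.176 and 0.793% against 1.34, 0.926 and 1.18%. In both settings every HIRA KO area was above every control area (exact permutation test, p = 0.1 each).

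**Figure D4:**
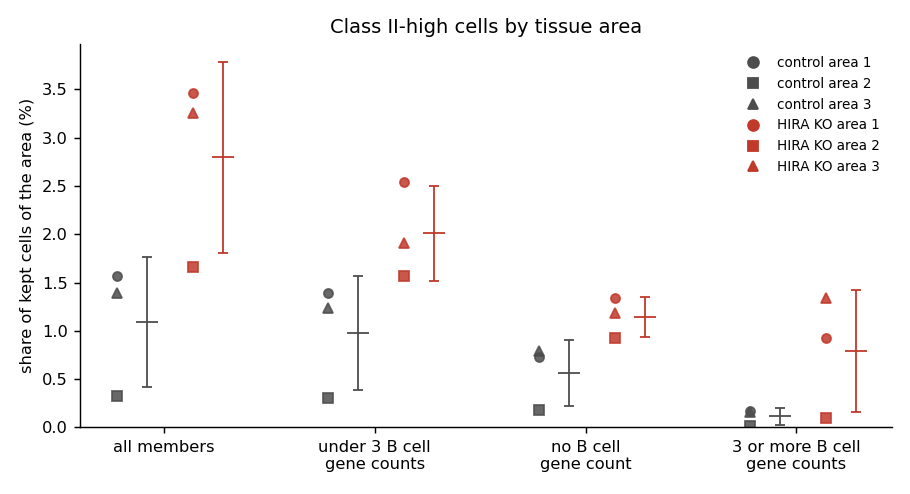
Share of class II-high cells among kept cells (%) in each of 6 tissue areas, for all members and for members divided by their counts of 7 B cell genes. Bars give the mean and SD of 3 areas per group. HIRA KO areas lie above control areas in the first 3 sets (all members, 1.09 and 2.80% on average) and overlap in the set with at least 3 B cell gene counts.

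The members held a small part of all class II transcripts of the tissue. They carried 11.8, 4.74 and 12.9% of them in the control areas and 15.8, 15.3 and 11.6% in the HIRA KO areas, with overlap. Cells set aside by the Kupffer gate carried 6.83 to 29.9% and other kept cells, each with too few class II counts or too low a class II share for the rule, 44.7 to 82.8%. Over all kept cells the class II genes took 1.02% ± 0.374 of gene counts on the control side and 1.66% ± 0.610 on the HIRA KO side (SD, n = 3), the areas overlapped and the exact permutation test gave p = 0.3. Without the members the values were 0.910% and 1.45%, with overlap (p = 0.3).

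Gene levels inside the members did not differ between genotypes past the threshold. Counts were summed per area over the members, and of 626 genes tested with edgeR's quasi-likelihood test 0 were called higher (0%) and 0 lower (0%) at an adjusted p of 0.05. At an unadjusted p under 0.05 there were 41 genes, and DESeq2 and limma-voom also called 0, with 14 and 41 at the unadjusted level. The median standard error of the log2 fold changes was 0.42. Every HIRA KO area was above every control area for 35 genes (5.59% of those tested) and below for 43 (6.87%).

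Of the genes that serve antigen presentation, 11 of 15 outside the rule were tested and 9 had a positive log2 fold change, with a median of 0.31 beside 0.01 for all 626 genes. The class I heavy chain gene H2-D1 had the lowest p of this list. Its level was 24.6, 7.81 and 23.9 counts per 10000 in the control areas and 35.2, 34.8 and 45.03 in the HIRA KO areas, which did not overlap (log2 0.92, SE 0.34, edgeR adjusted p = 0.507). The control area 2 value stood on 2 counts. B2m, the class I light chain (log2 0.39, SE 0.34), and H2-K1, a further class I heavy chain (log2 0.24, SE 0.35), overlapped between groups.

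Among dendritic cell genes, 10 of 11 were tested, 1 was positive and the median was -0.26. Ccl22, a chemokine that attracts CCR4-bearing T cells, had the lowest p of all tested genes (edgeR adjusted p = 0.104, log2 -1.88, SE 0.45). It was at 7.97, 15.6 and 49.03 counts per 10000 in control members and 6.81, 7.49 and 4.76 in HIRA KO members. The areas did not overlap, but control area 3, with 43 of the 115 counts, stood far above the rest, and without it the log2 fold change was -0.48 (edgeR adjusted p = 0.9002). Without control area 1 or without HIRA KO area 2, Ccl22 passed the threshold (log2 -2.49 and -1.96). Ccl17, a chemokine gene for the same receptor, had the same order of control areas (7.97, 11.7 and 30.8) and overlapped with HIRA KO (6.81, 10.2 and 9.51; log2 -0.89, SE 0.42), and without control area 3 its log2 fold change was 0.09. Cd209a (log2 -0.65, SE 0.40) and Itgax (log2 0.02, SE 0.42) overlapped as well.

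Monocyte and macrophage genes were divided, with 9 of 20 tested genes positive and a median of -0.06. Fcer1g (log2 -0.09, SE 0.32) and Tyrobp (log2 -0.22, SE 0.34), signalling adaptors of myeloid cells, and the calcium-binding protein gene S100a4 (log2 0.19, SE 0.35) had the most counts. The lowest p was that of Csf2ra, a chain of the GM-CSF receptor, with 9, 0 and 9 counts in the control areas and 46, 40 and 28 in the HIRA KO areas (edgeR adjusted p = 0.716), and its levels overlapped. Of 11 lysosomal and lipid-associated macrophage genes tested, 8 were positive with a median of 0.19. Psap was at 71.7, 54.6 and 109 in control and 86.3, 125 and 89.1 in HIRA KO, which overlapped (log2 0.39, SE 0.34). Apoe (log2 0.19, SE 0.33) and the cathepsin gene Ctsd (log2 0.33, SE 0.37) overlapped too, and Gpnmb, with the lowest p of the list, stood on 7 control counts and 62 HIRA KO counts (log2 1.36, SE 0.63, edgeR adjusted p = 0.712). The Gpnmb value was 0.49 without control area 1 and 3.48 without control area 3.

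All 10 pan-leukocyte genes tested were positive, with a median of 0.29, where 321 of all 626 tested genes were positive. The 8 B cell genes tested were also all positive, with a median of 0.63. With the members that held any B cell gene count left out, the pan-leukocyte median was -0.09 over 6 tested genes. Fewer cells and fewer genes entered this value, so the 2 pan-leukocyte medians are not of the same genes. Named members of the pan-leukocyte list were Srgn, a granule proteoglycan (log2 0.40, SE 0.33), Vim (log2 0.11, SE 0.31), Cd37 (log2 0.09, SE 0.38) and Rac2, a GTPase of blood cells (log2 0.79, SE 0.42, edgeR adjusted p = 0.813), and the areas overlapped in all 4.

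Interferon response genes had a median of -0.03, with 6 of 14 positive. Ifitm3 (log2 0.09), Bst2 (log2 0.40), Ifitm1 (log2 -0.45) and Cxcl10 (log2 -0.52) overlapped, with standard errors between 0.36 and 0.41. Of 23 chemokine and chemokine receptor genes tested, 10 were positive, with a median of -0.04. Cxcl12, which retains CXCR4-bearing leukocytes, was at 52.2, 54.6 and 65.0 in control and 37.2, 49.2 and 47.6 in HIRA KO, which did not overlap, although the change was small (log2 -0.27, SE 0.32, edgeR adjusted p = 0.976). Ccl5 (log2 0.55, SE 0.33) and the lymphoid chemokine gene Ccl19 (log2 0.10, SE 0.34) overlapped.

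Inflammatory cytokine genes had a median of 0.09, with 6 of 11 positive. Il10 encodes an anti-inflammatory cytokine. It was at 7.97, 3.90 and 4.56 in control members and 14.3, 12.8 and 10.5 in HIRA KO members, which did not overlap (log2 1.08, SE 0.44, edgeR adjusted p = 0.675). Its level over all members, 11.3, was that of other kept cells, 11.1, and control members gave 11, 1 and 4 counts. Tgfb1 (log2 -0.15, SE 0.40) and Il16 (log2 0.46, SE 0.42) overlapped. Of the 29 genes named by the rule, 4 had areas that did not overlap, of which H2-D1 and Il10 were above and Ccl22 and Cxcl12 below control in HIRA KO. They made up 13.8% of the named genes. Of all 626 tested genes, 5.59% lay apart above control and 6.87% below, so the named genes were close to that background. The 4 genes are a description only, since the rule picks the lowest p of each list.

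**Figure D5:**
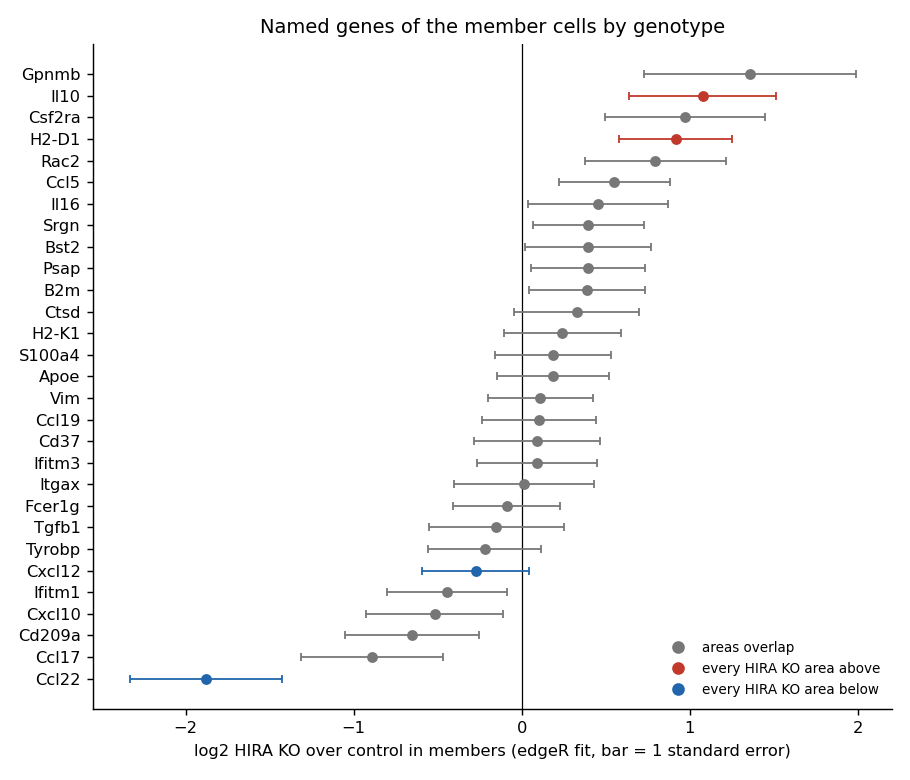
Log2 fold change of HIRA KO over control in members for the 29 genes named by the rule, from the edgeR fit, with a bar of 1 standard error to either side. Red and blue mark genes whose 3 HIRA KO areas all lay above (H2-D1, Il10) or below (Ccl22, Cxcl12) the 3 control areas, and no gene passed an adjusted p of 0.05.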

How the data were processed

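The data were CosMx counts from FFPE sections of the median liver lobe. The deposited expression table holds unnormalized whole-number counts of each target in each segmented cell, with a transcript table with positions and compartments, and, per the file headers, the mean intensity of each stain per cell with cell and nuclear areas in square pixels. Decoding and segmentation settings are not given in the sources used here, and the deposited cell outlines were not used. Fields were assigned to groups by the labels, and to areas by their positions on the slide. Members and gene lists were chosen with earlier results of these data known.

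Cells under 20 gene counts (2215) were left out, and the 10 negative probes were not counted as genes. No filter on doublets was used. The count and transcript tables differed for 0 cells, and 0 columns of per-sample values were set aside. Per-area medians or shares were compared over 6 areas by exact permutation tests, two-sided, paired for members against other cells, with Benjamini-Hochberg adjustment over 7 stain and size measures or 9 neighbour classes. Since the labels name no mouse, p-values measure the spread between tissue areas. A neighbour was called marked for a class with at least 3 counts of its marker list and an excess over the count its depth would give. Member counts outside the 11 rule genes were summed per area and tested in edgeR 4.0.16 (TMM, filterByExpr, quasi-likelihood test, adjusted p of 0.05), with limma 3.58.1 (voom) and DESeq2 1.42.0 as alternatives, in R 4.3.3. Other steps used Python 3.11.15, numpy 2.4.6, pandas 2.3.3 and scipy 1.17.1. The gene test was tested on simulated data.

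Named genes were, from each of 8 lists, the 3 tested genes with the most member counts and the 1 with the lowest p, together with the 10 genes with the largest fold over other cells, all above the highest negative probe (44 counts in members). Mgp, Gsn, Col3a1, S100a6, Plac8 and the B cell genes were named after their values were seen. Alternatives covered the rule's thresholds, depth, tools, normalization, filters, slide row and leaving out each area. The division by B cell genes was chosen after seeing the data. Some results are not reported here.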

Additional observations from a re-analysis of the deposited data

How the results depend on the processing

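Of 656 alternative values, 569 kept their direction and their side of the threshold or stayed within the stated spread. With 3 areas per group the exact test cannot pass 0.05, so the share of class II-high cells passed only with the field of view as the unit (difference 1.51 percentage points, permutation test), and fields of 1 area are not independent. With 1 area left out, 5 pairs allow no exact p under 0.0625, and the log2 differences between members and other cells were 2.25 to 2.46 for CD45, -0.44 to -0.37 for PanCK, 0.77 to 0.96 for DAPI, -1.04 to -0.93 for cell area, -0.47 to -0.42 for nuclear area and -0.052 to 0.093 for CD3, and the nuclear share of class II transcripts was lower by -5.60 to -4.04 points. Among cells of the middle sizes the log2 differences were 2.13 for CD45, -0.46 for PanCK and 0.55 for DAPI, no longer past the adjusted threshold, and 0.061 for nuclear area and -0.068 for B2M, with the sign turned. This comparison could not be made for cell area, which defines those cells.

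The number of genes called was 0 to 3 with 1 area left out. The calls were Ccl22 without control area 1, and Ccl22, Ighm and Nr2f2 without HIRA KO area 2. It was 2 with members of at least 10 class II counts and 10% (Mgp and Tpm2, 113 genes tested). The cause was not tested. Leaving out large cells removed no member from the gene sums.

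Of the 29 named genes, 16 kept their sign in every alternative in which they were tested, and not all could be tested in each. With members of at least 10 counts and 10%, the log2 fold change was -0.43 for Itgax, 0.21 for Fcer1g, -0.056 for S100a4, -0.14 for Vim, -0.28 for Ifitm3 and -0.14 for Ccl5. With 0 Kupffer gate counts it was -0.13 for Itgax and -0.13 for S100a4. Without members holding at least 3 B cell gene counts it was -0.0097 for S100a4, -0.47 for Cd37 and -0.14 for Ccl19, and without those holding any it was 0.14 for Fcer1g, -0.21 for S100a4, -0.031 for Srgn, -0.064 for Vim and -0.68 for Cd37. DESeq2 gave -0.031 for Itgax, limma-voom -0.025 for Ccl19, and scaling by library size only -0.070 for Itgax and -3.0e-05 for Cd37. With slide row as a block the values were -0.10 for Itgax and -0.020 for Ifitm3. With 1 area left out the log2 fold changes ran from -1.43 to 0.088 for Ccl17, -0.14 to 0.31 for Ccl19, -0.27 to 0.40 for Cd37, -0.97 to 0.22 for Cxcl10, -0.33 to 0.14 for Fcer1g, -0.13 to 0.51 for H2-K1, -0.20 to 0.24 for Ifitm3, -0.36 to 0.27 for Itgax, -0.023 to 0.31 for S100a4 and -0.48 to 0.55 for Tgfb1. The replicate numbers of the labels are not shared between groups, so the only pairing was by slide row, and with slide row as a block 0 of 626 genes were called (43 at an unadjusted p under 0.05).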
